A study of Mus musculus with 12 samples.

Results

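The genes described here are 10 members of the BCL2 family, the set of mitochondrial proteins that decide whether a cell starts apoptosis: Bcl2, Bcl2l1, Mcl1, Bcl2l11, Bax, Bak1, Bid, Bad, Bbc3 and Pmaip1. They were chosen by name as family genes active in the terminal end buds of the mammary gland. All probe sets that the platform annotation gives exactly 1 of these symbols were taken, which found 29 of the 45037 probe sets other than array controls, for 9 of the 10 genes. No probe set is named Bax in the annotation used here, so Bax was not analysed here.

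RNA came from primary mammary epithelial cells of 6-week-old female FVB/N mice, an inbred strain, and each array held 1 biological replicate. The 6 p190B arrays came from mice with 2 transgenes, MMTV-rtTA and TetO-p190B-IRES-luciferase. The 6 control arrays came from mice with MMTV-rtTA alone. Mice of both genotypes ate chow with doxycycline at 2 g/kg for 7 days before isolation. The MMTV promoter directs the doxycycline-dependent activator rtTA mainly to mammary epithelium, and the Arhgap5 gene encodes p190B. The comparison asks which transcripts differ with the p190B transgene, and here whether those of the survival and death genes do.

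In healthy cells the anti-apoptotic proteins BCL2, BCL-XL (from Bcl2l1) and MCL1 hold the effectors BAX and BAK in check at the mitochondrial outer membrane. BH3-only proteins, here BIM (Bcl2l11), BID, BAD, PUMA (Bbc3) and NOXA (Pmaip1), sense damage or lost survival signals and either occupy the anti-apoptotic proteins or activate the effectors, which then release cytochrome c. In the pubertal mouse mammary gland BIM is needed for the death of the inner cells that hollows out the terminal end bud, and MCL1 is needed for epithelial survival.

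Values are linear intensities, 1 per probe set and array, each array already scaled by its depositors to a common average. Tests used log2(intensity + 16) in limma over the 27022 probe sets whose mean level lay at or above the 40th percentile, an intensity of 101.0. The median intensity per array ran from 187 to 210.5. The keratins of luminal cells were bright on all arrays, Krt8 between 38760 and 47661 and Krt18 between 40812 and 53565, and the basal keratin Krt14 lay between 8342 and 14981. The preparations also held other cells: the summed intensity of 16 lymphocyte markers ran from 1533 to 16530 over control arrays and from 1342 to 17340 over p190B arrays, and none of them was at 0. Sums were larger for 7 fibroblast markers, at 132051.5 to 193195 in control and 161076.5 to 203456 in p190B. For 9 macrophage markers they were 51281 to 69484 and 54026 to 70847, and for 8 endothelial and pericyte markers 33177 to 49265 and 35850 to 50316. Member levels are those of the mixed preparations. Arhgap5, which checks the genotype label, was read by 4 tested probe sets with log2 differences from -0.32 to 0.41, of which 0 passed (limma adjusted p from 0.258 to 0.925). Arhgap5 thus gave no independent check of the labels, and whether its probe sets read the transgene is not known. The log2 ratio of the 3′ over the 5′ Gapdh control probe sets, a sign of RNA quality, ran from -0.52 to -0.47 in control and from -0.48 to -0.32 in p190B, a difference of 0.09 (exact two-sided permutation p = 0.00433, unadjusted). The same ratio of Actb ran from 0.25 to 0.35 in control and from 0.31 to 0.59 in p190B, a difference of 0.11 (exact two-sided permutation p = 0.0152, unadjusted). Because both differ with genotype, the larger shifts in fits that take in either ratio are given beside the members. For the same reason these fits cannot fully separate the ratio from the genotype, and their values are not corrected effects. No member passed in those fits.

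None of the BCL2 family genes passed the test between genotypes. Of the 29 probe sets, 27 passed the filter on dim values and 0 of them reached a limma adjusted p under 0.05, where 0.0370% of all tested probe sets did (10 of 27022). By direction, 0.00370% of all were called higher and 0.0333% lower. The smallest adjusted p of a member was 0.282. At an unadjusted p under 0.05 there were 3 of the 27 (11.1%), all of Mcl1, beside 9.32% of all tested probe sets. The log2 differences of the 27 tested member probe sets, p190B minus control, ran from -0.35 for a dim Bid probe set to 0.19 for Bak1. Their median was -0.03 beside 0.02 over all tested probe sets. The median absolute difference was 0.09 for the members and 0.10 for all. With 6 arrays a group, the 95% limma intervals reached at most 0.51 to either side of the estimate.

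**Figure D1:**
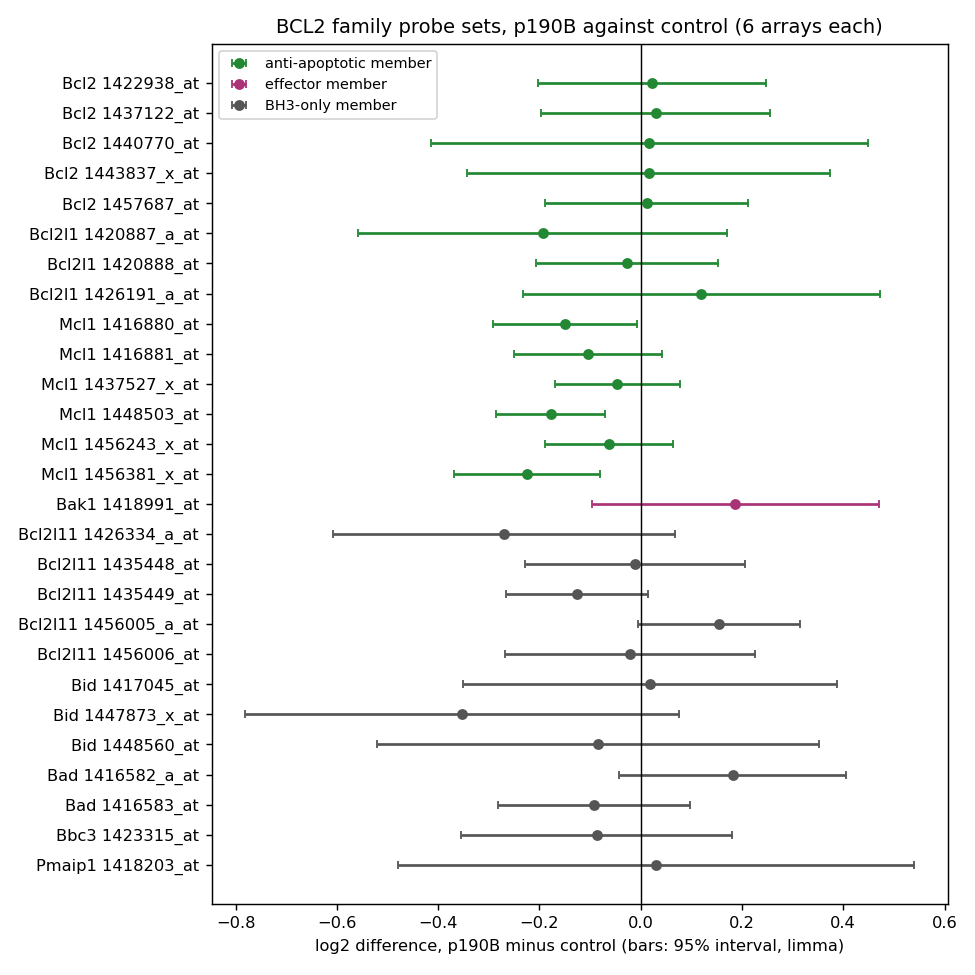
Log2 difference between p190B and control (x axis, log2 units) for each of the 27 tested BCL2 family probe sets (y axis), coloured by role, with 95% limma intervals from 6 arrays per group. Only 3 intervals, all of Mcl1, lie wholly to one side of 0, and none of the 27 passed after adjustment over 27022 probe sets.

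The sequence before the start site is shown for Mcl1, the member with the lowest adjusted p, and for Bcl2l1, Bcl2l11 and Bid, of which some probe sets varied together between mice. All are 250 bases upstream of a RefSeq transcript start in mouse build GRCm38.p6, with coordinates of those bases, from the listed start nearest to the gene's annotated start. The Bcl2l11 start is that gene start, while the Mcl1 start lies 1777 bases from it, the Bcl2l1 start 2075 and the Bid start 238. Capitals mark matches to the searched motifs on either strand.
Mcl1, chr3:95658471-95658720, plus strand: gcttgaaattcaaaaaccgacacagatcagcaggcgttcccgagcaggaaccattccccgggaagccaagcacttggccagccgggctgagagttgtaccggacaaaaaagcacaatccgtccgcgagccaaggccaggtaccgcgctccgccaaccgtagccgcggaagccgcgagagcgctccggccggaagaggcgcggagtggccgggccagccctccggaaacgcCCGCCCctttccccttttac
Bcl2l1, chr2:152831729-152831978, minus strand: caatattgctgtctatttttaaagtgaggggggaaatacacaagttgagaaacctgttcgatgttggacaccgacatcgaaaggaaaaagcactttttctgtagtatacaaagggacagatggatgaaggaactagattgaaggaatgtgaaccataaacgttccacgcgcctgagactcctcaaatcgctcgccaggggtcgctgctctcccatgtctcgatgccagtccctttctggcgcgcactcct
Bcl2l11, chr2:128125788-128126037, plus strand: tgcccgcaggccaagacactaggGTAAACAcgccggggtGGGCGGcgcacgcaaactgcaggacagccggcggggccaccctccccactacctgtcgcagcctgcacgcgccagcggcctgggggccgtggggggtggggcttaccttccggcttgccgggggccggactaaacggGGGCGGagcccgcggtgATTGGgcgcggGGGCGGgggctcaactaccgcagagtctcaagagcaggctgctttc
Bid, chr6:120916825-120917074, minus strand: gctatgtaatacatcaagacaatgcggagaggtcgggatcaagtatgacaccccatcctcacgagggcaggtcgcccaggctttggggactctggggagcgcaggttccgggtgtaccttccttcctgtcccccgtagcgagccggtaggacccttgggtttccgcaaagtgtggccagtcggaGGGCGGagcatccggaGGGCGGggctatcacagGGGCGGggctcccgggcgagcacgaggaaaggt

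The motifs searched were the GC box GGGCGG, the CCAAT box, the TATA box TATAAA, the E-box CACGTG, the CRE core TGACGT, the FOXO site GTAAACA, the STAT site TTCNNNGAA and the E2F cores TTTGGCG and TTTCGCG. Overlapping matches were counted singly. The Bcl2l11 window held 3 GC boxes, 1 CCAAT box and 1 FOXO site, the Bid window 3 GC boxes, the Mcl1 window 1 GC box and the Bcl2l1 window none of these letters. Of 32851 upstream windows of this length, 32.7% held a GC box, 33.8% a CCAAT box and 3.17% the FOXO letters. G and C made up 72.0% of the Bcl2l11 window, 64.4% of the Mcl1 window, 63.6% of the Bid window and 47.6% of the Bcl2l1 window, beside a median of 52.4%. A match is a description of letters and not a bound site.

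Mcl1, which encodes a short-lived anti-apoptotic protein that holds BAK and BIM, was read by 6 bright probe sets, and all 6 averaged lower in p190B. Probe set 1448503_at ran from 23099 to 27795 with a median of 26741 in control and from 21964 to 23770 with a median of 22904 in p190B. The groups overlapped, with 4 of 6 p190B arrays below every control array. It averaged 26064 ± 1885 in control and 23000 ± 663 in p190B (± SD, 6 arrays per group). The log2 difference was -0.18 (SE 0.05, 95% interval -0.29 to -0.07). The limma adjusted p was 0.282, and the exact two-sided permutation p for this probe set alone was 0.00649, unadjusted.

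Probe set 1456381_x_at of Mcl1 ran from 14206 to 17149 with a median of 15761 in control and from 11880 to 14824 with a median of 13735 in p190B. Here 3 of 6 p190B arrays lay below all control arrays, and the log2 difference was -0.22 (SE 0.07, limma adjusted p = 0.312). Probe set 1416880_at had 5 of 6 p190B arrays below every control array, with medians of 19326 in control and 17736 in p190B and a log2 difference of -0.15 (SE 0.07, limma adjusted p = 0.505). The other Mcl1 probe sets gave -0.10 for 1416881_at, -0.06 for 1456243_x_at and -0.05 for 1437527_x_at, with limma adjusted p from 0.689 to 0.865. Sets whose name ends in _x_at can also bind transcripts of other genes. The 6 read transcripts of 1 gene and are not independent measurements, and 45.1% of all tested probe sets were lower in p190B.

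The mean log2 value of the 6 Mcl1 probe sets stood at 14.26 ± 0.09 over control arrays against 14.14 ± 0.07 over p190B arrays (± SD, n = 6). On this mean 2 of 6 p190B arrays lay below every control array, so the groups overlapped. When the fit took in the Gapdh ratio, 4 of the 6 differences were still negative and they ran from -0.15 to 0.05, with a smallest limma adjusted p of 0.749. With the Actb ratio instead, all 6 were negative, from -0.24 to -0.04, with a smallest limma adjusted p of 0.313. After quantile normalisation all 6 were negative, from -0.21 to -0.06, with a smallest limma adjusted p of 0.085. They stayed negative, from -0.22 to -0.03, when the fit took in the mean of lymphocyte or of proliferation markers. The residual SD of the Mcl1 probe sets within genotypes was 0.08 to 0.12 log2 units, beside a median of 0.21 over all tested probe sets. That median takes in far dimmer probe sets, and probe sets of like brightness were not compared.

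**Figure D2:**
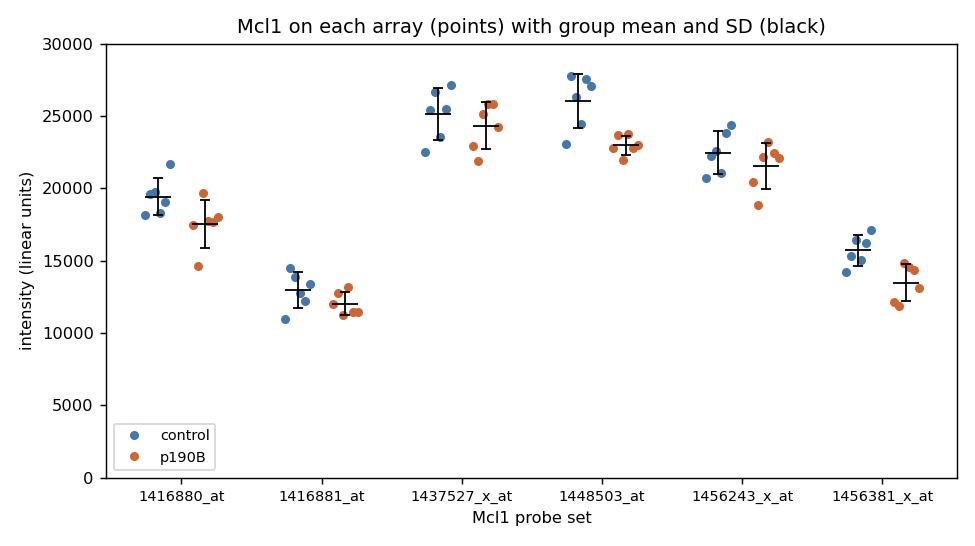
Linear intensity (y axis, from 0) of the 6 Mcl1 probe sets (x axis) on each control and p190B array, with the group mean and SD in black (n = 6). The p190B mean is lower for all 6, most clearly for 1448503_at and 1456381_x_at, and the groups overlap for each.

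Bcl2l1 encodes BCL-XL and, by another splice choice, the pro-apoptotic BCL-XS, and 3 of its 4 probe sets were tested. The brightest, 1420888_at, ran from 1425 to 1843 with a median of 1464 in control and from 1411 to 1706 with a median of 1499 in p190B. The ranges overlapped almost fully, and the log2 difference was -0.03 (SE 0.08, 95% interval -0.21 to 0.15). Probe sets 1420887_a_at and 1426191_a_at gave -0.19 (SE 0.17) and 0.12 (SE 0.16), with limma adjusted p of 0.779 and 0.885. Adjusted for the Gapdh ratio 1426191_a_at gave 0.35 (SE 0.25), and 1420887_a_at gave -0.34 adjusted for the Actb ratio and -0.05 for the proliferation mean. Probe set 1420888_at gave -0.12 adjusted for the Gapdh ratio and -0.13 for the Actb ratio. The remaining probe set, 1426050_at, was too dim to be tested, at 8.8 to 80 in control and 9.4 to 78.2 in p190B. Its log2 difference in the fit with no filter was 0.18 (SE 0.36).

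Bcl2, the founding survival gene of the family, was read by 5 tested probe sets, whose differences all lay between 0.01 and 0.03. Its brightest, 1457687_at, ran from 1121 to 1583 with a median of 1351 in control and from 1194 to 1632 with a median of 1344 in p190B. The ranges overlapped, and the log2 difference was 0.01 (SE 0.09, 95% interval -0.19 to 0.21). Limma adjusted p for the 5 ran from 0.962 to 0.990. Their sign is not stable, since scaling every array to the same median turned 4 of them slightly negative (-0.02 to -0.01). Nor is their size: adjusted for the Gapdh ratio, 1443837_x_at gave 0.53 (SE 0.20, limma adjusted p = 0.719), 1457687_at 0.16 and 1422938_at 0.14. The 5 probe sets agreed poorly with each other across arrays, with a median pairwise correlation of 0.25 (range -0.34 to 0.48, 10 pairs over 12 arrays, genotype means removed).

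Of the effectors, which open the outer membrane, Bak1 was measured. Its tested probe set, 1418991_at, ran from 454 to 699 with a median of 600.8 in control and from 459 to 806 with a median of 696 in p190B. The groups overlapped, although 3 p190B arrays exceeded all 6 controls. The log2 difference was 0.19 (SE 0.13, 95% interval -0.10 to 0.47, limma adjusted p = 0.716). It was 0.07 adjusted for the Actb ratio. A dimmer Bak1 probe set, 1425716_s_at, ran from 31.3 to 188 in control and from 46.6 to 146 in p190B. Its mean log2 level over all arrays lay under the filter, although single arrays were above it, and it was not tested. In the fit with no filter its log2 difference was 0.50 (SE 0.35).

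Bcl2l11 encodes BIM, the BH3-only protein that clears the end bud lumen, and its 5 probe sets differed in sign between genotypes, 1 higher and 4 lower in p190B. The brightest, 1456005_a_at, ran from 10791 to 13390 with a median of 12062 in control and from 11537 to 15829 with a median of 13185 in p190B. Only 2 p190B arrays exceeded all control arrays, and the log2 difference was 0.15 (SE 0.07, limma adjusted p = 0.556). It was 0.02 (SE 0.11) adjusted for the Gapdh ratio. Probe set 1435449_at pointed the other way, with medians of 2213 in control and 1979 in p190B and a log2 difference of -0.13 (SE 0.07, limma adjusted p = 0.584). A single control array, replicate 3, was low for it, at 1894 beside 2164 to 2341 on the others, and without that array the difference was -0.17. The other probe sets gave -0.27 (SE 0.16) for 1426334_a_at, -0.01 for 1435448_at and -0.02 for 1456006_at. For 1426334_a_at, adjusting for the Gapdh ratio gave 0.07, and leaving out p190B replicates 1 and 3 gave -0.07. Which BIM splice forms each of them reads was not analysed here.

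Bid, whose protein links death receptors to mitochondria once caspase 8 has cut it, varied between mice on all 3 of its probe sets, with residual SDs of 0.34 to 0.40 log2 units beside a median of 0.18 over the members. Its brightest probe set, 1417045_at, ran from 1157 to 2353 with a median of 1292 in control and from 1150 to 1921 with a median of 1445 in p190B. Control replicate 2 was the highest of all arrays on each of the 3 Bid probe sets. Their log2 differences were 0.02 for 1417045_at, -0.08 for 1448560_at and -0.35 for the dim 1447873_x_at (SE 0.17, 0.20 and 0.20), with limma adjusted p of 0.987, 0.944 and 0.621. Adjusted for the Gapdh ratio, 1417045_at gave -0.38 and 1448560_at gave -0.41. Adjusted for the Actb ratio, 1447873_x_at gave -0.57.

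Bad, a BH3-only protein kept inactive by phosphorylation downstream of growth factors, was read by 2 probe sets of opposite sign. Probe set 1416582_a_at ran from 878 to 1070 with a median of 978 in control and from 909 to 1353 with a median of 1073 in p190B, and 3 p190B arrays lay above all control arrays. Its log2 difference was 0.18 (SE 0.10, limma adjusted p = 0.632), while 1416583_at gave -0.09 (SE 0.09). Adjusted for the Gapdh ratio both were positive, at 0.43 (SE 0.14, limma adjusted p = 0.719) and 0.096 (SE 0.12). Bbc3, which encodes the p53 target PUMA, ran from 385 to 541 with a median of 409 in control and from 299.8 to 494 with a median of 413 in p190B. Its groups overlapped, with a log2 difference of -0.09 (SE 0.13, limma adjusted p = 0.892). The difference was -0.32 (SE 0.18) adjusted for the Gapdh ratio and -0.0039 without p190B replicate 6.

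Pmaip1 encodes NOXA, a BH3-only protein that binds MCL1 and marks it for degradation, and its level differed more between mice than that of any other tested member. Probe set 1418203_at ran from 728 to 1757 with a median of 1125 in control and from 754 to 1798 with a median of 1153 in p190B. The ranges almost coincided, and the log2 difference was 0.03 (SE 0.24, 95% interval -0.48 to 0.54). It was 0.34 adjusted for the Actb ratio and 0.27 (SE 0.37) for the Gapdh ratio. Its residual SD within genotypes was 0.48 log2 units, a value reached by 6.09% of all tested probe sets.

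The spread of Pmaip1 followed the lymphocyte markers of the preparations. Over the 12 arrays its log2 level correlated with the mean of the 16 lymphocyte markers at Pearson r = 0.97 and Spearman correlation 0.99 (permutation p = 1e-05 for both, the smallest that 100000 permutations can give). Adjusted over the 27 member probe sets the p was 0.00027, and over all 270 relations of these probe sets with 10 marker lists it was 0.0027. Pearson r was 0.96 without control replicate 5 and p190B replicate 1, the arrays farthest from the median lymphocyte level. Within control it was 0.99 and within p190B 0.96 (exact permutation p = 0.00139 in each, n = 6). With the lymphocyte mean as a covariate the genotype difference was 0.00 with an SE of 0.08, in place of 0.24.

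No difference of the lymphocyte mean between genotypes was detected, at 6.69 to 9.52 in control and 6.40 to 9.61 in p190B (exact permutation p = 0.916, unadjusted), with no separate clusters of arrays. Of 20 listed lymphocyte markers 16 had a probe set, and only Pax5 lay under the filter. In bulk RNA, fewer cells of a type and less RNA per cell cannot be told apart. Pmaip1 also correlated with the neutrophil and mast cell marker mean (Pearson 0.84, Spearman 0.88), which itself correlated with the lymphocyte mean at 0.88. Over the 270 relations the adjusted permutation p of that relation was 0.108 by Pearson and 0.0419 by Spearman. No batch is given in the labels, so none could be taken out.

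A second member followed the lymphocyte markers less closely. The Bcl2 probe set 1443837_x_at ran from 171 to 218 in control and from 126 to 285 in p190B and correlated with the lymphocyte mean at r = 0.76 (Pearson) and 0.80 (Spearman), with permutation p = 0.00313 and 0.00311 (adjusted over 27 relations 0.0423 and 0.0420). Over all 270 relations the adjusted p was 0.146 by Pearson and 0.210 by Spearman. Within control r was 0.31 (exact permutation p = 0.567) and within p190B 0.93 (exact permutation p = 0.0111), and whether they differ was not tested. The other 4 Bcl2 probe sets had r from 0.15 to 0.60. The lowest r of any member was -0.58, for Bid 1447873_x_at.

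**Figure D3:**
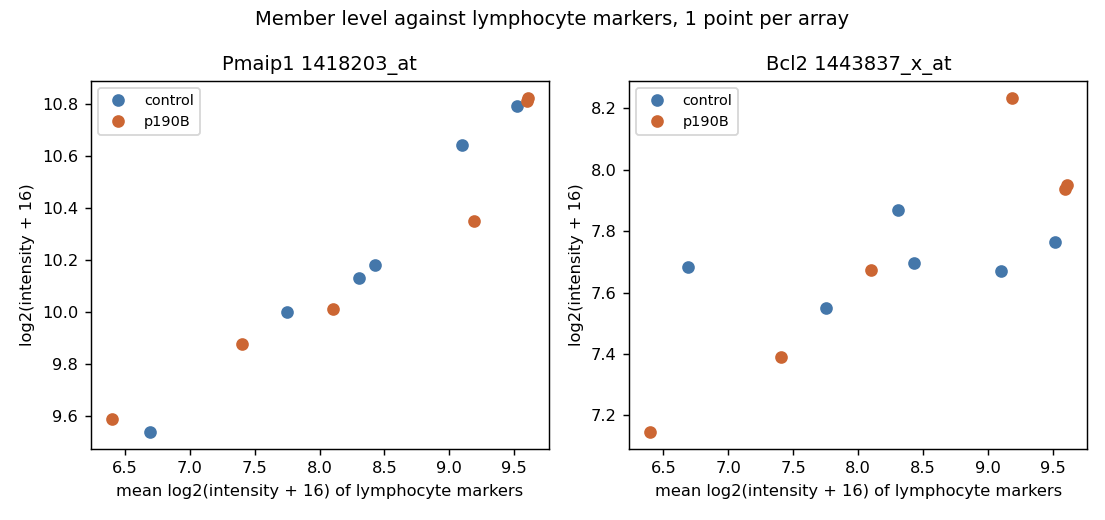
Log2 level of Pmaip1 (left) and Bcl2 1443837_x_at (right) on the y axes against the mean log2 level of 16 lymphocyte markers on the x axis, 1 point per array and genotypes by colour. Arrays of both genotypes lie along 1 line for Pmaip1 (r = 0.97), and the points of the Bcl2 probe set are more scattered (r = 0.76).

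Some probe sets of Bcl2l1, Bcl2l11 and Bid varied together from mouse to mouse within genotypes. With genotype means removed, Bcl2l1 1420888_at correlated over the 12 arrays with Bcl2l11 1435448_at at 0.81, with Bcl2l11 1456006_at at 0.79, with Bid 1447873_x_at at 0.73 and with Bid 1448560_at at 0.70. Bid 1447873_x_at correlated with these Bcl2l11 probe sets at 0.84 for each. Bcl2l1 1420888_at gave 0.74 with Bcl2l11 1456005_a_at and 0.62 with Bid 1417045_at. It gave only 0.11 with Bcl2l11 1426334_a_at and 0.11 with 1435449_at. Such values are descriptions of 12 arrays that share preparation and scaling, and over the 309 pairs of different member genes they ran from -0.84 to 0.84 with a median of 0.03. The lowest pair was Mcl1 1416881_at with Bak1. Control replicate 2 stood high for Bcl2l1 1420888_at, Bcl2l11 1435448_at and 1456006_at, and Bid 1447873_x_at and 1448560_at.

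That array also had the lowest mean of 12 proliferation markers, 9.15 beside 9.54 to 10.36 on the other control arrays. Bcl2l1 1420888_at correlated with the proliferation mean at r = -0.84 (Pearson) and -0.71 (Spearman), with permutation p = 0.00114 and 0.0127, but over 270 relations the adjusted p was 0.108 by Pearson and 0.344 by Spearman. Without control replicate 2 and p190B replicate 1, the arrays farthest from the median, r was -0.64. Within control r was -0.99 (exact permutation p = 0.00278) and within p190B -0.72 (exact permutation p = 0.107). The same correlation was -0.75 for Bcl2l11 1435448_at, -0.74 for Bid 1447873_x_at and -0.48 for Bid 1448560_at. Without the same 2 arrays it was -0.47 for Bcl2l11 1435448_at and -0.56 for Bid 1447873_x_at, and it turned to 0.21 for Bid 1448560_at. This relation was examined after the data had been seen. The proliferation mean was 9.15 to 10.36 in control and 9.52 to 10.97 in p190B (exact permutation p = 0.227, unadjusted). All 12 markers averaged higher in p190B, with a median log2 difference of 0.39, and 0 of them passed. Over all tested probe sets 45.1% were lower in p190B.

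**Figure D4:**
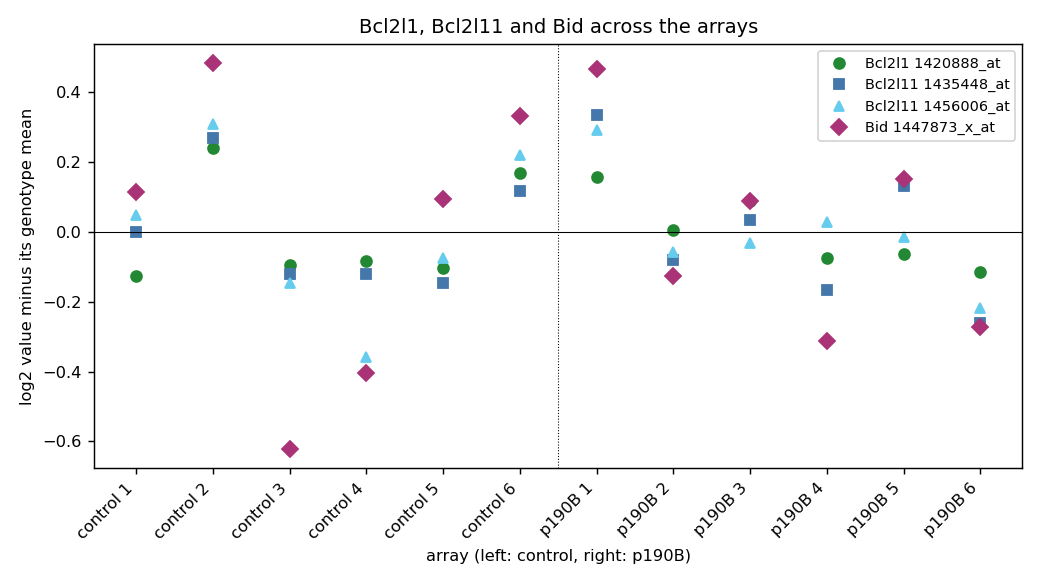
Log2 value minus its genotype mean (y axis) on each array (x axis) for 1 Bcl2l1, 2 Bcl2l11 and 1 Bid probe set. Control replicate 2 and p190B replicate 1 are high for all of them, and p190B replicate 6 is low for all.

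Genes around the family were read from 6 lists, each gene by its brightest probe set, and 0 of the 72 tested genes passed over all probe sets. The mean log2 levels of the lists gave exact two-sided permutation p from 0.184 to 0.885, unadjusted. Beside the counts below, 45.1% of all tested probe sets were lower in p190B. Of 11 other BCL2 family genes 7 were higher and 4 lower in p190B, with a median log2 difference of 0.06. Bmf, a BH3-only gene tied to loss of attachment, gave 0.24 (SE 0.12, limma adjusted p = 0.570) and the BH3-only gene Hrk 0.46 (SE 0.30, limma adjusted p = 0.694). Of 12 apoptosome and caspase genes 8 were higher, and cytochrome c, Cycs, gave -0.14 (SE 0.06) and the initiator caspase Casp9 0.19 (SE 0.10). Of 7 inhibitor of apoptosis genes 4 were higher, with Birc6 at -0.12 (SE 0.08) and Birc5, survivin, which also acts in mitosis, at 0.41 (SE 0.29).

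In the death receptor list 4 of 9 genes were higher. The TNF receptor adaptor Tradd gave 0.25 (SE 0.08, limma adjusted p = 0.355) and the receptor Tnfrsf1a 0.12 (SE 0.06). Among 14 genes of p53 and its targets, 1 of them (Tnfrsf10b) also in the death receptor list, 9 were lower, with a median of -0.06 beside 0.02 over all tested probe sets. The cell cycle inhibitor Cdkn1a gave -0.18 (SE 0.06, limma adjusted p = 0.406) and Trp53inp1 -0.25 (SE 0.10, limma adjusted p = 0.465), while the p53 targets among the members, Bbc3 and Pmaip1, gave -0.09 and 0.03. Of 20 regulators of BH3-only genes and proteins 15 were higher. The 14-3-3 protein Ywhaz, of the family that holds phosphorylated BAD, gave -0.16 (SE 0.05, limma adjusted p = 0.288), and Dynll1, a dynein light chain that binds BIM, gave 0.11 (SE 0.05, limma adjusted p = 0.513).

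The genes whose pattern over the 12 arrays was most like that of a member were taken for each member's brightest tested probe set, as the 3 highest Pearson r with genotype means removed among 23306 other named probe sets. For Pmaip1 they were Stk17b, Ikzf3 and H2-Ea, each at 0.98. Ikzf3, a transcription factor of lymphocytes, ran from 64.4 to 584 over the arrays. For Bcl2l1 they were the cytokine gene Il33 (0.98), the kinase gene Src (0.96) and Senp2 (0.96). For Mcl1 they were Ing3 (0.94), Sun2 (0.93) and Mettl14 (0.90), and for Bcl2l11 Mob3a (0.94), Rras2 (0.92) and Wdr36 (0.92).

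Bid was most like the translation factor gene Eif3a (0.95), Zfp799 (0.94) and Nop2 (0.92), and Bcl2 most like Stard5 (0.92), 2810001G20Rik (0.91) and Tsacc (0.88). Bak1 was most like Ncoa1 (0.91), Fbxl19 (0.90) and Gtf2i (0.90), Bad most like Trmt13 (0.92), Rala (0.89) and Arih1 (0.89), and Bbc3 most like Rbbp5 (0.92), Rmnd5b (0.88) and Ppm1h (0.88). These are the extremes of many comparisons over 12 arrays and are given as a description.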

How the data were processed

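Total RNA was labelled as biotinylated cRNA for Affymetrix arrays, per the labels' protocols. The deposited table gives a linear intensity for each of 45101 probe sets on each array, computed by the authors with MAS5, per the submitters' processing notes (version not given in the sources used here). Every array had a 2% trimmed mean of 1000.0. Precision is limited by the number of arrays. P-values measure the spread between samples called biological replicates in the labels.

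Sample titles gave the groups and replicate numbers. The platform annotation gave 34945 probe sets 1 symbol, 932 several and 9160 none, and RefSeq (GRCm38.p6) changed 0 symbols. The test was limma 3.58.1 (R 4.3.3) with an intensity trend on log2(intensity + 16), two-sided, Benjamini-Hochberg adjusted over 27022 probe sets, at a threshold of 0.05. On this scale the changes of dim genes come out too small. Single values were tested by exact permutation of the genotype labels (924 ways, smallest p 0.00216), and correlations with 100000 permutations. On simulated data for p190B against control (27022 probe sets, 200 changed, 10 runs) 55.4% of 1.5-fold and 83.7% of 2-fold changes were recovered. The simulation drew each probe set independently, while real probe sets vary together, so these rates may not hold for the members.

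The members and lists were chosen with earlier results of these data known. Named genes are all member probe sets, the 2 smallest p of each pathway list and the 3 most alike genes per member. Marker genes, which that rule also names, are given as list levels. Relations with the 9 marker lists other than lymphocytes were examined after the data had been seen. Promoter windows of 9 member genes were in the RefSeq table and 4 were searched (Python 3.11.15). Figures were drawn with matplotlib 3.10.9.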

Additional observations from a re-analysis of the deposited data

Results flagged for a closer look

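Among 58 groups of 6 arrays, 1 for each member probe set and genotype, 1 held an array far from the others. Chance flags about 1 in 20 such groups, so this is no more than chance gives. On Bcl2l11 probe set 1435449_at, control replicate 3 read 1893.6, below the 2164 to 2341 of the other control arrays.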

How the results depend on the processing

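No member probe set passed under any setting tried, fits without 1 array included. The count over all probe sets, 10, was 5 with no filter on low values, 17 with a filter at the 60th percentile, 28 after quantile normalisation, 3 with arrays scaled to the same median, 3 without the trend, 19 with array weights, 1 adjusted for the Actb ratio, 0 for the Gapdh ratio (1802 at an unadjusted limma p under 0.05), 5 without p190B replicates 1 and 3, and 4 to 9 without 1 array. The labels do not say what the replicate number marks, and whether it pairs the arrays was not tested against differently numbered ones. Deviations of same-numbered arrays correlated from -0.29 to 0.41. With the number as a block the limma count was 0 (2287 at an unadjusted p under 0.05). Log2 differences changed sign in 36 of 324 values without 1 array and in 29 of 400 values under the other settings. Scaling to the same median gave Bcl2 1422938_at -0.0062, 1440770_at -0.012, 1443837_x_at -0.013, 1457687_at -0.017 and Bid 1417045_at -0.011. Quantile normalisation gave Bcl2 1440770_at -0.039, 1443837_x_at -0.018 and Bcl2l11 1435448_at 0.0029. Array weights gave Bid 1417045_at -0.012. The proliferation mean as covariate gave Bcl2 1440770_at -0.047, 1443837_x_at -0.098, 1457687_at -0.020, Bcl2l1 1420888_at 0.058, Bcl2l11 1435448_at 0.0999, 1456006_at 0.092, Bid 1448560_at 0.052 and Pmaip1 -0.14. The lymphocyte mean gave Bcl2 1443837_x_at -0.00021 and Pmaip1 -0.0029. The Actb ratio gave Bcl2 1437122_at -0.0050 and Bid 1417045_at -0.19. The Gapdh ratio gave Bcl2 1440770_at -0.057, Mcl1 1437527_x_at 0.053, 1456243_x_at 0.042, Bcl2l11 1426334_a_at 0.074, Bid 1417045_at -0.38 and Bad 1416583_at 0.096. Without a change of sign, that ratio also moved Bcl2 1443837_x_at to 0.53, Bad 1416582_a_at to 0.43 and Bcl2l1 1426191_a_at to 0.35. It moved Bbc3 to -0.32, Bcl2l11 1456005_a_at to 0.020 and Bid 1448560_at to -0.41. The Actb ratio moved Pmaip1 to 0.34, Bak1 1418991_at to 0.073 and Bid 1447873_x_at to -0.57. Leaving out p190B replicates 1 and 3 gave Bcl2 1437122_at -0.0060 and Bid 1417045_at -0.10. The correlation of Bcl2 1443837_x_at with lymphocyte markers was 0.31 within control, where 6 arrays remain. Without 1 array the ranges were -0.048 to 0.057 for Bcl2 1422938_at, -0.028 to 0.072 for 1437122_at, -0.081 to 0.13 for 1440770_at, -0.087 to 0.13 for 1443837_x_at, -0.041 to 0.058 for 1457687_at, -0.058 to 0.021 for Bcl2l1 1420888_at, -0.078 to 0.043 for Bcl2l11 1435448_at, -0.093 to 0.041 for 1456006_at, -0.065 to 0.16 for Bid 1417045_at, -0.17 to 0.079 for 1448560_at and -0.10 to 0.16 for Pmaip1. The cause was not tested.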
